A study of Homo sapiens with 2 samples.

Results

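The genes described here encode the mitochondrial ribosome and the factors that translate on it, measured in J82, an established human bladder cancer cell line. They were chosen by symbol alone: names starting MRPL or MRPS plus a digit (large and small subunit proteins), MTIF, MTRF or MTERF, and GFM1, GFM2, TUFM and TSFM. The rule found 76 genes of 14232 measured by a probe set with a single gene symbol, namely 42 large subunit genes, 23 small subunit genes, 7 translation factors and 4 genes of the MTERF family. Each of the 76 was measured by exactly 1 probe set. J82 cells, grown in DMEM with serum and with no treatment named in the labels, were stained with the DNA dye Hoechst and separated by flow cytometry into a side population (SP) and a non-side population (NSP). By the usual definition SP cells pump the dye out and NSP cells retain it. Total RNA of each population was hybridised to 1 whole-transcript exon array, so the design sets SP against NSP cells of the same line. With 1 array for each population there is no replicate check, no error between samples and no p-value, and every difference is one between these 2 arrays. In RNA of sorted populations, fewer cells of a kind and less RNA per cell cannot be told apart.

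Mitochondria hold their own ribosomes, which make the few membrane proteins of the respiratory chain and of ATP synthase that mitochondrial DNA still encodes. All proteins of these ribosomes are encoded in the nucleus, made in the cytosol and imported, and they join mitochondrial ribosomal RNAs to form a large subunit, which forms peptide bonds, and a small subunit, which reads the mRNA. Initiation, elongation and release need a separate set of nuclear-encoded factors that resemble those of bacteria. The promoters of many genes for mitochondrial proteins are known to carry sites for the factors NRF1, YY1 and GABP, an ETS family protein.

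Promoters of the members were searched for the letters of these sites, a property that the array values do not enter. RefSeq windows on GRCh38.p14, running from 250 bases before to 50 bases after the gene start, were found for 68 of the 76 members. MRPL2, MRPL10, MRPL13, MRPL15, MRPL21, MRPL23, MRPL35 and MTERF3 had no window. The 250 bases before the start are shown for MRPS17 and MRPS23, the small subunit genes with the largest SP deficits, and for MRPL47, the large subunit gene with the largest SP excess. Capitals mark matches to the ETS letters CCGGAAG, which read CTTCCGG on the other strand, or to the CAAT box letters CCAAT. The windows lie at chr7:55951627-55951876 on the plus strand for MRPS17, at chr17:57850045-57850294 on the minus strand for MRPS23 and at chr3:179604639-179604888 on the minus strand for MRPL47.
MRPS17: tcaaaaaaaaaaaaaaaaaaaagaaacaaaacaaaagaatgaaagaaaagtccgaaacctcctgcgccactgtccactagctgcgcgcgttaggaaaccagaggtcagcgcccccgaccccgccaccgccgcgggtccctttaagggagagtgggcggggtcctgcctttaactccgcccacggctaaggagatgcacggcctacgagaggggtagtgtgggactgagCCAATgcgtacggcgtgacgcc
MRPS23: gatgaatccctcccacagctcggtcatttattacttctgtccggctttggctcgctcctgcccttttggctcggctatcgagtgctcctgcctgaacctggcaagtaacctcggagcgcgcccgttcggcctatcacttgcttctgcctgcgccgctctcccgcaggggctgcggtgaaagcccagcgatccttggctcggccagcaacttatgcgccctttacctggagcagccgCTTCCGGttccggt
MRPL47: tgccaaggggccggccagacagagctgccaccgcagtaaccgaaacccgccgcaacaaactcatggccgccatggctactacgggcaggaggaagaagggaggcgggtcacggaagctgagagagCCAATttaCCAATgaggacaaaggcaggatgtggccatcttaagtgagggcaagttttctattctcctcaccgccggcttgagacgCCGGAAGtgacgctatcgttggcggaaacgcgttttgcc
The ETS match begins 14 bases before the start in MRPS23 and 39 bases before it in MRPL47, and the MRPS17 window holds none. So an ETS match was present in a member lower in SP and in a member higher in SP.

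The YY1 letters, present in a minority of member promoters, are shown in 30-base stretches around matches to AAGATGGCG (in capitals) in the 5 members with the largest SP deficits among those with a match that reached the signal floor explained below. They lie at chr9:101398576-101398605 (MRPL50), chr12:93467512-93467541 (MRPL42), chr17:75904859-75904888 (MRPL38), chr6:42217833-42217862 (MRPS10) and chr7:43869479-43869508 (MRPS24). The MRPL42 stretch is on the plus strand and the others are on the minus strand.
MRPL50: gatctcatcgAAGATGGCGgcgcgatctgt
MRPL42: ggattgaaacAAGATGGCGggttcgtggtg
MRPL38: ggccggagggAAGATGGCGgcgccctggtg
MRPS10: cgggaccggcAAGATGGCGgcgcggacagc
MRPS24: cgcttggcccAAGATGGCGgcctccgtgtg
In each of these 5 the match begins just inside the gene, from base 7 in MRPL38 to base 24 in MRPL50.

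ETS letters were found in 29 of the 68 member promoters (42.6%), against 1648 of 11386 promoters of all measured genes (14.5%) and 19.9% of those of genes that reached the floor, which is the median of all array values (7.44, log2 signal) and has to be met on at least 1 array. YY1 letters were found in 11 of 68 (16.2%), against 2.97% of all measured genes and 4.57% of those reaching the floor. The NRF1 core letters GCATGCGC were found in 6 (8.82%) against 4.22% of all measured genes and 5.52% of those reaching the floor. The full NRF1 letters, which are this core with GC before it and so overlap it, were found in 1 of 68 (1.47%), the MRPL17 promoter, against 1.77% of all measured genes. CAAT box letters were found in 30.9% of member promoters and in 36.5% of all. The subunits had nearly equal shares of ETS matches, in 14 of 35 large subunit promoters (40.0%) and 9 of 23 small subunit promoters (39.1%). Both strands were searched, a match is a description of letters only, and no enrichment test was made.

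**Figure D1:**
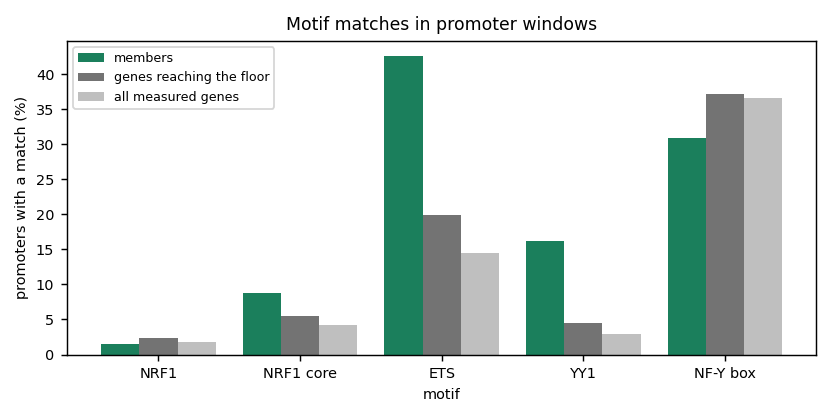
Share of promoter windows (%, y axis) with a match to each motif (x axis) in the 68 member promoters, in promoters of genes reaching the floor and in promoters of all measured genes. The members stand above both other bars for ETS (42.6%), YY1 (16.2%) and the NRF1 core (8.82%, 6 promoters). They do not for the full NRF1 letters or the CAAT box, labelled NF-Y box after the factor that binds it.

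Among members with ETS letters the median difference, SP minus NSP, was -0.20 on the log2 scale, and among members without them it was -0.16. With YY1 letters it was -0.26 and without them -0.16. Over all measured genes the same medians were -0.08 with and 0.01 without ETS letters, and -0.09 with and 0.00 without YY1 letters.

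The members were lower in SP by small margins that ran through most of the list. Of the 76 members 64 were lower in SP and 12 higher, which is 84.2% lower, against 49.5% of all measured genes. The members' median difference was -0.19, a 1.14-fold lower signal, against 0.00 over all genes, and 19.6% of all genes had a difference below the members' median. Their differences had an SD of 0.225 among members. Of the 61 members that reached the floor, 54 were lower in SP, against 59.6% of all genes reaching it. A difference of at least 0.32 on the log2 scale was used as the limit for counting larger differences. Past it, 12 of those 61 members were lower (19.7%, against 10.7% of all genes reaching the floor) and none was higher (against 8.57%). At 1.5-fold and at 2-fold only MRPS17 of these 61 was lower, against 1.43% and 0.119% of all genes reaching the floor. None of the 61 was higher, against 3.1% and 0.609%. The other 15 members stayed under the floor on both arrays. A gene can reach the floor through NSP alone, as MRPS17, MRPL43, MRPL48 and MRPS22 did, and such a gene had to be lower in SP. With both values at the floor or above, 50 of 57 members were lower (against 60.5% of 6994 genes), 10 of them by at least 0.32 (17.5%, against 9.81%), and none was higher by that much (against 7.95%).

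For scale, 60 genes of the whole table had more than 1 probe set reaching the floor, and the differences of probe sets of the same gene varied with a pooled SD of 0.261. This describes measurement spread within these 2 arrays, not variation between samples. Only 27 members lay further than that from 0, of which 25 were lower in SP and 2 higher. The share of all genes past this spread was not counted, and the differences of all genes had an SD of 0.257. Beyond 2 times that spread (0.523) lay MRPS17, MRPS23 and MTERF2, all lower, and MTRF1L, which was higher. For most members, taken singly, the difference therefore did not exceed the spread between probe sets of a gene.

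Large subunit genes had a median difference of -0.20, and 35 of the 42 were lower in SP, against 49.5% of all genes. Their quartiles were -0.30 and -0.11, and their differences ran from -0.43 to 0.19. Of the 36 that reached the floor 7 were lower by at least 0.32 (19.4%, against 10.7% of all genes reaching it) and none reached 1.5-fold. With both values at the floor or above, 6 of 34 were lower by at least 0.32, against 9.81% of all such genes. MRPL24, which encodes the counterpart of bacterial L24 near the exit of the peptide tunnel, read 8.62 in SP and 9.05 in NSP, 1.35-fold lower in SP. MRPL50, a subunit that bacteria lack, read 8.24 and 8.65 (1.33-fold lower). MRPL42, also without a bacterial counterpart, read 9.55 and 9.96 (1.32-fold lower). These 3 genes stood at the low end of the subunit, and their differences were nearly equal.

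MRPL35, counterpart of a small bacterial protein, read 8.0 in SP and 8.39 in NSP, 1.32-fold lower. MRPL41, specific to mitochondria, read 10.27 and 10.66 (1.30-fold lower). MRPL38, a protein of the central protuberance, read 7.71 and 8.08 (1.29-fold lower). The 3 deficits resembled each other although their signals ranged widely. MRPL43 read 7.29 and 7.62, just past the limit at -0.32, with its SP value under the floor. Short of that limit, MRPL51 read 11.77 and 12.08, a 1.23-fold lower signal. The 6 large subunit genes under the floor on both arrays were divided, with MRPL13 (6.30 and 6.62), MRPL22 (6.64 and 6.94) and MRPL33 lower in SP and MRPL1, MRPL54 and MRPL44 higher.

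Most of the remaining large subunit genes lay near the subunit's median. MRPL12, which forms the stalk that recruits translation factors, read 9.33 in SP and 9.52 in NSP (-0.19). Its neighbours at the stalk base, MRPL10 and MRPL11, differed by -0.14 and -0.20. MRPL58, a peptidyl-tRNA hydrolase that became a ribosomal subunit, read 9.12 and 9.37 (-0.25). MRPL39, related to threonyl-tRNA synthetase, read 8.13 and 8.39 (-0.26). The stalk genes thus lay at or above the subunit's median difference and these enzyme relatives below it, all of them lower in SP. MRPL21, MRPL30, MRPL23 and MRPL14 differed by -0.30, -0.29, -0.26 and -0.26, and MRPL48, MRPL2, MRPL40, MRPL4, MRPL32, MRPL33, MRPL52, MRPL16, MRPL19, MRPL34, MRPL37, MRPL46 and MRPL55 by -0.21 to -0.11. MRPL28, MRPL18 and MRPL17 were lower by less than 0.1, and MRPL17 turned to 0.06 when a trend on signal level was removed.

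Only 7 large subunit genes read higher in SP. MRPL47, the counterpart of bacterial L29, read 9.92 in SP and 9.73 in NSP, 1.14-fold higher. MRPL49 read 7.91 and 7.77 (1.10-fold higher), and MRPL44, which has a ribonuclease III-like fold, read 7.33 and 7.20 (1.09-fold higher) under the floor. MRPL54, MRPL1, MRPL15 and MRPL27 differed by 0.09, 0.05, 0.01 and 0.01, and MRPL1 came out just below 0 when a trend on signal level was removed. All 7 excesses were smaller than the spread between probe sets of a gene.

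**Figure D2:**
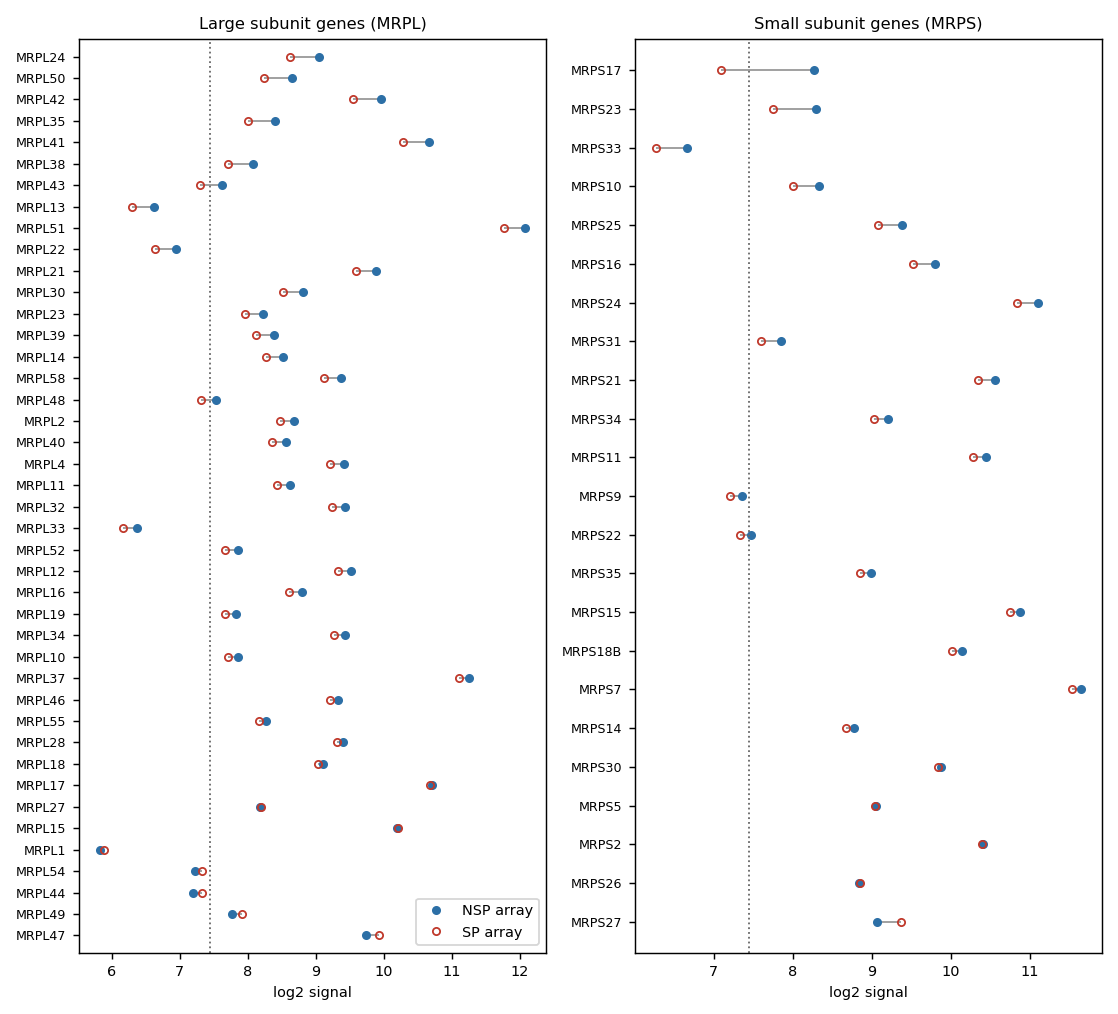
Log2 signal (x axis) of each large subunit gene (left) and small subunit gene (right) in the SP array (open red) and the NSP array (filled blue), ordered by their difference, with the floor as a dotted line. The NSP point lies to the right for 35 of 42 large and 21 of 23 small subunit genes, and MRPS17 has by far the widest gap, from 8.27 to 7.09.

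Small subunit genes had a median difference of -0.15, and 21 of the 23 were lower in SP, against 49.5% of all genes. Their quartiles were -0.27 and -0.11, and their differences ran from -1.18 to 0.30. Of the 21 that reached the floor 3 were lower by at least 0.32 (14.3%, against 10.7% of all genes reaching it), namely MRPS17, MRPS23 and MRPS10. With both values at the floor or above, which leaves out MRPS17, 2 of 19 were lower by that much, against 9.81% of all such genes. MRPS17, which encodes the counterpart of the rRNA-binding bacterial protein S17, read 7.09 in SP and 8.27 in NSP. That is 2.27-fold lower, with the SP value under the floor, and only 0.0703% of all measured genes had a lower difference. MRPS17 is thus far outside the range of the other small subunit genes, which ended at -0.54. RefSeq lists 6 pseudogenes named after MRPS17, and whether its probes also read these was not tested.

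MRPS23, specific to mitochondria, read 7.75 in SP and 8.29 in NSP, 1.45-fold lower. MRPS33 read 6.27 and 6.66, under the floor on both arrays. MRPS10 read 8.0 and 8.33 (1.26-fold lower). Behind MRPS17 these 3 led the subunit's deficits. MRPS25 read 9.08 and 9.38, and MRPS16, the counterpart of bacterial S16, read 9.51 and 9.79. MRPS24, the counterpart of bacterial S3, read 10.84 and 11.10, and MRPS31 read 7.60 and 7.85. MRPS21 read 10.34 and 10.55, with 9 pseudogenes of its name listed. These 5 lay between -0.30 and -0.22, within the range of the large subunit.

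MRPS7, which organises the head of the small subunit, read 11.53 in SP and 11.65 in NSP, a difference of -0.11. MRPS34, MRPS11, MRPS9, MRPS22, MRPS35, MRPS15, MRPS18B and MRPS14 lay between -0.18 and -0.10. MRPS30, MRPS5 and MRPS2 differed by -0.04, -0.02 and -0.01, and all 3 turned to positive values when a trend on signal level was removed (0.04, 0.06 and 0.08). MRPS26 read 8.85 on the SP array and 8.84 on the NSP array. MRPS27, a pentatricopeptide repeat protein that binds RNA, was the only clear exception in this subunit, with 9.36 in SP and 9.06 in NSP, 1.23-fold higher. Structures of the human mitoribosome place the product of MRPS30 in the large subunit in spite of its name, and moving it there gave medians of -0.20 for the large and -0.16 for the small subunit.

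Large and small subunit medians differed by -0.05, and no test of this difference was made. The means lay in the opposite order, -0.18 for the large subunit (SD 0.157 among genes) and -0.21 for the small subunit (SD 0.268). Subunits were also divided by whether their protein has a bacterial counterpart, a division chosen after the values were seen. The 38 with such a counterpart had a median of -0.19 with 34 lower, and the 27 specific to mitochondria had a median of -0.20 with 22 lower. In the small subunit all 12 genes with a bacterial counterpart were lower, although MRPS5 and MRPS2 only by 0.02 and 0.01. Members with pseudogenes of their name in RefSeq (35) had a median of -0.20, and the other 41 had one of -0.16.

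Of the 7 translation factors 4 were lower in SP (57.1%, near the 49.5% of all genes) and 3 higher, with a median of -0.03. Only TSFM, GFM1 and TUFM reached the floor. Of the elongation factors, TUFM, which brings aminoacyl-tRNA to the ribosome, read 9.95 in SP and 9.92 in NSP. TSFM, which reloads TUFM with GTP, read 8.33 and 8.82, 1.40-fold lower. GFM1, the translocation factor, read 9.57 and 9.69 (1.09-fold lower). So the exchange factor was lower in SP while its partner differed by 0.03. MTIF2, the initiation factor that places the first tRNA, read 6.94 and 6.97, both under the floor.

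Release factors went both ways, all with dim signals. MTRF1L, which releases the finished chain at the common stop codons, read 6.84 in SP and 6.23 in NSP, 1.53-fold higher. MTRF1, its paralogue, read 5.34 and 5.75 (1.33-fold lower). MTRFR, which rescues stalled ribosomes, read 6.59 and 6.58, and its sign changed when a trend on signal level was removed (-0.04). MTRF1L had the largest excess of all 76 members, and since both its values lie under the floor it enters no count of folds.

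All 4 MTERF genes, which encode mitochondrial nucleic acid binding proteins, were lower in SP, against 49.5% of all genes. Their median was -0.44, and only MTERF3 reached the floor. MTERF3, which acts on mitochondrial transcription and on large subunit assembly, read 7.57 in SP and 8.01 in NSP, 1.36-fold lower. MTERF4, which guides the rRNA methyltransferase NSUN4 to the large subunit, read 6.01 and 6.46 (1.36-fold lower). MTERF2 read 6.48 and 7.09 (1.52-fold lower), and MTERF1, known for stopping transcription behind the rRNA genes, 6.67 and 6.83 (1.12-fold lower). The family's 4 values are few and mostly dim, and NSUN4 itself read 8.98 and 8.88.

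**Figure D3:**
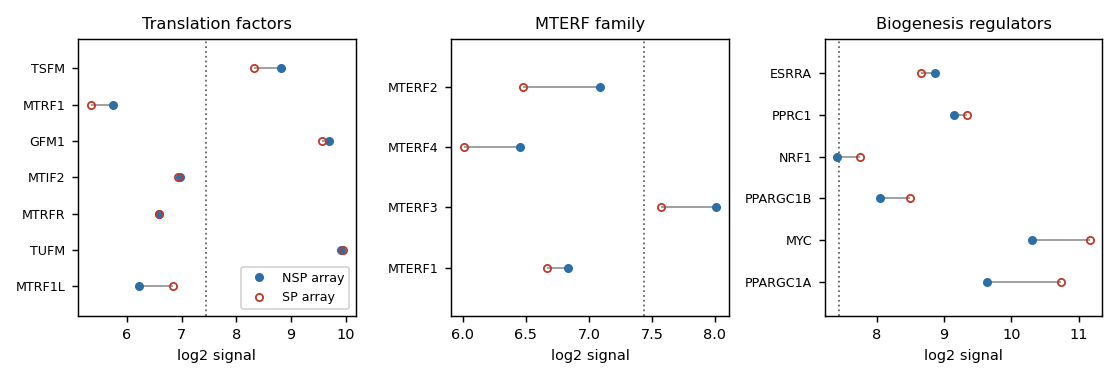
Log2 signal (x axis, scaled separately in each panel) in the SP array (open red) and the NSP array (filled blue) for the translation factors, the MTERF family and 6 regulators of mitochondrial biogenesis, with the floor as a dotted line. All 4 MTERF genes read lower in SP, MTRF1L reads higher, and 5 of the 6 regulators read higher in SP.

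The members' deficit was seen in every range of signal. Over all genes the median difference declined from 0.05 at mean signals under 7 to -0.08 at 10 and above, so brighter genes tended to be lower in SP. For mean signals from 8 to 9 the 19 members had a median of -0.26 against -0.06 for all 2821 genes in that range. There 17 of the 19 members were lower, against 60.0% of all genes in the range. From 9 to 10 the medians were -0.16 for 19 members and -0.08 for all genes, and at 10 and above -0.13 for 12 members and -0.08 for all genes. The gap to other genes was thus narrower among bright signals. Across the 76 members the Pearson r between mean signal and difference was 0.0944, a description over genes that share both arrays.

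**Figure D4:**
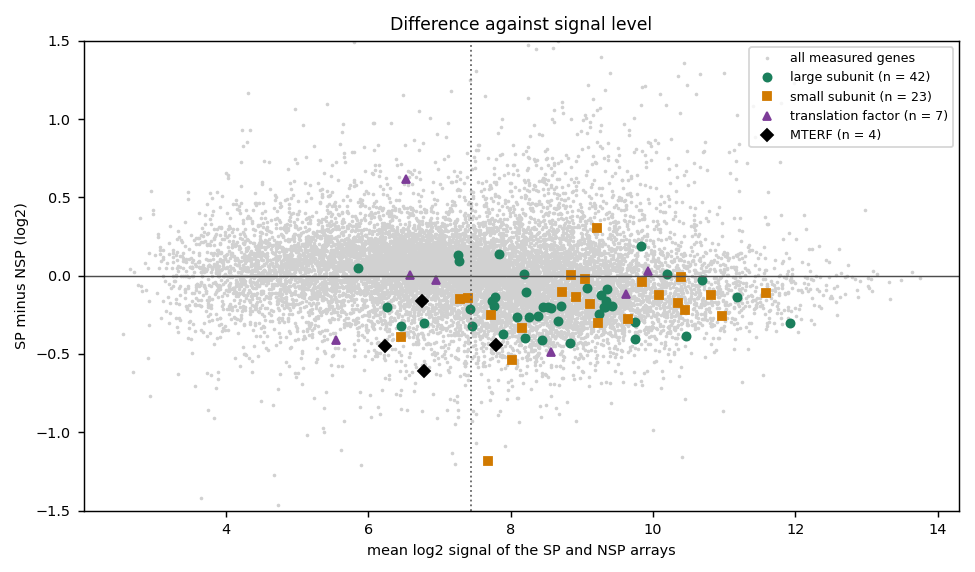
Difference SP minus NSP (log2, y axis) against the mean log2 signal of both arrays (x axis) for all measured genes (grey) and the members by class, with the floor as a dotted line. Most members lie below 0 at every signal level, MRPS17 lies lowest at -1.18 and MTRF1L highest at 0.61; 10 genes beyond 1.5 on the y axis are not drawn.

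Other genes of the same pathway were taken from lists, and their values are given beside those of the members. Nuclear-encoded subunits of oxidative phosphorylation, the chain that depends on mitochondrial translation, had a median of -0.20, with 51 of 62 measured genes lower in SP, against 49.5% of all genes. Of the 51 that reached the floor 46 were lower (90.2%, against 59.6% of all genes reaching it). Of the same 51, 10 were lower by at least 0.32 (19.6%, against 10.7% of all genes reaching the floor). None was past that limit on the other side (against 8.57%). NDUFS6, a subunit of complex I, read 9.24 in SP and 9.92 in NSP, 1.60-fold lower. The members and the respiratory chain genes thus had nearly equal medians and shares on these arrays.

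Genes that serve the mitochondrial ribosome without being part of it had negative medians in 3 further lists, which were not tested against the members. All genes reaching the floor also had a negative median, -0.05, with 59.6% lower, and the first 2 lists below had medians near it. Among list genes reaching the floor, 75%, 76.5% and 70% were lower, in the order of the lists below. Assembly and rRNA modification genes had a median of -0.07, with 14 of 18 lower, and among them the methyltransferase gene MRM3 read 8.27 in SP and 8.66 in NSP. Genes that charge mitochondrial tRNAs had a median of -0.07, with 14 of 18 lower, and CARS2, the cysteine enzyme, read 9.32 and 9.71. Mitochondrial RNA processing genes had a median of -0.14, with 8 of 11 lower. SLIRP, an RNA stability factor, read 10.96 and 11.36, while its partner LRPPRC read 10.01 and 9.78, higher in SP.

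Activators, recycling and insertion genes had a median of 0.01, with 4 of 9 lower (against 49.5% of all genes). Among them the insertase gene OXA1L read 11.95 in SP and 11.94 in NSP. Transcription and replication genes of mitochondrial DNA had a median of -0.20, with 6 of 7 lower, against 59.6% of all genes reaching the floor, as all 7 did. TEFM, the elongation factor of the mitochondrial RNA polymerase, read 6.68 and 7.54 (1.82-fold lower), and TFAM, which packages mitochondrial DNA, 9.07 and 9.30. Of 5 mitoribosomal proteins with other names 3 were measured: CHCHD1 read 6.97 and 7.49 (1.44-fold lower), GADD45GIP1 differed by -0.13, and DAP3 by 0.06. Of the mRNAs that mitochondrial ribosomes translate, ND5 and ND6, both for subunits of complex I, had a probe set of their own. ND5 read 12.89 in SP and 12.92 in NSP, and ND6 read 7.37 and 7.45, so both were lower in SP by less than 0.1. Another 4 probe sets name such mRNAs together with other genes, and all 4 read lower in SP, from -0.18 for the set naming COX3, ATP6, ATP8 and ATP13A5 to -0.04.

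Cytosolic ribosomal proteins had a median of -0.07, near the -0.05 of all genes reaching the floor, and their differences ran from -0.74 to 0.76. Of 32 measured genes 20 were lower (62.5%, against 49.5% of all genes). Of the 22 that reached the floor 17 were lower (77.3%, against 59.6% of all genes reaching it). Their many processed pseudogenes make single values uncertain. Regulators of mitochondrial biogenesis went the other way, with 5 of 6 higher in SP, against 3027 of 7549 genes reaching the floor, as all 6 did. PPARGC1A, a coactivator that drives mitochondrial gene expression, read 10.73 in SP and 9.64 in NSP, 2.12-fold higher. MYC, a growth factor-induced transcription factor that also acts on mitochondrial genes, read 11.16 and 10.31 (1.80-fold higher). PPARGC1B and NRF1 were 1.37-fold and 1.26-fold higher, and ESRRA was 1.16-fold lower. The lists overlap in no member with the 76 genes, and no test of a difference between lists was made.

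**Figure D5:**
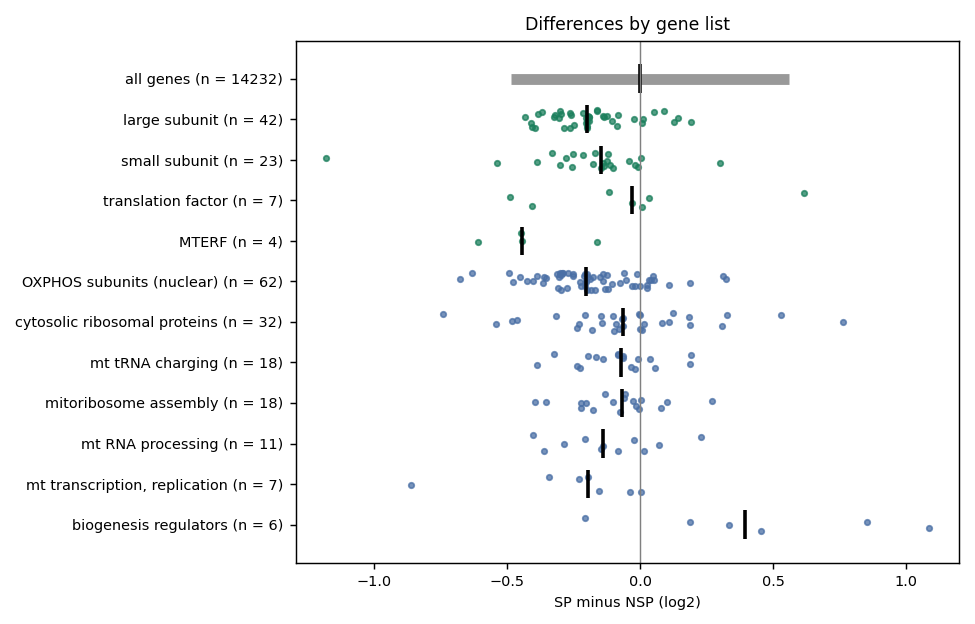
Difference SP minus NSP (log2, x axis) of each gene in the member classes (green) and in related lists (blue), with the median as a black line; vertical scatter is for legibility. For all genes the grey bar spans the central 95%, from -0.48 to 0.56, and the black lines of the subunits and the respiratory chain genes stand at -0.20 to -0.15.

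As a check of the label, 4 of 12 epithelial and urothelial markers reached the floor, against 7549 of 14232 measured genes. KRT8 (13.18 in SP and 12.77 in NSP) and KRT18 (10.57 and 10.32) were bright, and KRT19 (7.73 and 7.58) and KRT7 (7.55 and 7.53) lay just above the floor. EPCAM (4.42 on both arrays), CDH1, GATA3 and KRT20 stayed under it, so the list as a whole was mixed. All 4 measured uroplakin genes, the defining markers of mature urothelium, were under the floor as well. The 4 mesenchymal markers all reached it, as did 2 of 5 measured immune markers (CD14 and CD68) and none of 4 endothelial or 2 erythroid markers. PTPRC, the general leukocyte marker, read 3.74 and 3.80. The summed linear signal of the measured immune markers was 928 in SP and 1077 in NSP. CD68 was the brightest of them, at 9.35 in SP and 9.66 in NSP, while CD14 read 7.73 and 7.64. The part of this signal in the members' differences was not tested.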

How the data were processed

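The authors deposited log2 signals per probe set for 2 arrays, made with RMA and Partek per the submitters' processing notes. RMA in general subtracts background, equalises array distributions and summarises probes on the log2 scale. No version, probe set definition, filter or build is stated for them, so no array coordinates are given, and centring is unknown. That the scale is log2 follows from RMA and from the range, with medians of 7.43 (SP) and 7.44 (NSP). No probe intensities were used, so detection above background is not known, and 2 arrays limit precision.

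Of 22011 probe sets 14432 had 1 gene symbol, 2408 several and 5171 none. Their Entrez identifiers gave current symbols from the RefSeq table on GRCh38.p14 (14404 matched). Averaging over the probe sets of each gene left 14232 genes. Differences are SP minus NSP (log2) and folds are 2 to the power of their size. No test was made, as each population has 1 sample. Both values are printed mainly for the members with the largest differences, those at least 0.1 higher in SP, and all factors; some further members, and the related genes OXA1L, NSUN4, DAP3 and LRPPRC, were added after their values were seen. Members and lists were chosen with earlier results of these data known. The code was tested on simulated data. Tables were handled with pandas 2.3.3 and numpy 2.4.6 under Python 3.11.15. The lowess curve came from statsmodels 0.14.6, and plots from matplotlib 3.10.9.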

Additional observations from a re-analysis of the deposited data

How the results depend on the processing

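The medians over all members and over each subunit kept their sign under both filters on low values, quantile normalisation, means, leaving out the member with the largest difference, moving MRPS30, and subtraction of a lowess curve fitted against mean signal (span 0.3). They ranged from -0.19 to -0.14 (all members), from -0.20 to -0.14 (large subunit) and from -0.21 to -0.10 (small subunit), the weakest after the lowess step for all 3. Centring, unchanged symbols and use of the brightest probe set moved nothing, since the centring shift was 0.00, the update renamed no member and each member has 1 probe set. The median of the 7 translation factors was -0.12 with either floor, -0.046 after quantile normalisation, -0.056 as a mean and -0.074 without MTRF1L. The large minus small subunit median was -0.021 after quantile normalisation and reversed to 0.024 with means. At 1.5-fold and at 2-fold the count of lower members was 0 for the large subunit and 1 for the small subunit, in place of 7 and 3. Any promoter window of a gene in place of the first listed, an alternative chosen after seeing the data, gave ETS letters in 45.6% of member promoters. Both arrays have no replicate, which no alternative changes.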

Other observations

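Probe sets annotated with several genes were left out of the members, and 20 of them name a gene of the rule or, in CCDC32;MRPL42P5, a pseudogene of one. Of these 18 read lower in SP, 1 read higher and 1 had the same value on both arrays, with a median difference of -0.12. The share lower among all 2408 probe sets with several symbols was not counted, so these 20 have no background to be read against. They are the only probe sets here for MRPL3, MRPL9, MRPL45, MRPL53, MRPL57, MRPS6, MRPS12, MRPS18A, MRPS18C, MRPS28 and MTIF3, which makes 11 genes. MRPL57, a small protein specific to the mitochondrial large subunit, shares 2 probe sets with SKA3, a spindle attachment gene, and they read 7.69 in SP and 8.14 in NSP, and 7.0 and 7.43. MRPS12, the counterpart of bacterial S12, shares 2 with the mitochondrial seryl-tRNA synthetase gene SARS2, which read 8.78 and 9.14, and 8.35 and 8.64. In the probe set shared by MRPS18C and ABRAXAS1 the values were 4.87 and 5.56, both dim. Which of the named genes such a probe set reads was not tested. MRPL20, MRPL36 and GFM2 were not analysed here.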
